A study of Zea mays with 28 samples.

Results

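The 26 maize genes described here had a higher mean level than controls 2 h after infestation with *O. pratensis* but little or no such rise, on a log2(CPM + 1) scale, 24 h after infestation with either *O. pratensis* or *T. urticae*. They were taken from 39625 genes by a rule on read counts. Read counts scaled to the library total, as CPM, were averaged over the 4 leaves of a group, and D was the log2 of that mean plus 1, minus the same value in the controls. A gene was kept when D was at least 1 after 2 h of *O. pratensis* and under 0.5 after 24 h of *O. pratensis* and after 24 h of *T. urticae*. Levels in the controls and in these 3 mite groups therefore chose the genes, and every contrast among those 4 groups is given below as a description with no test. The rule sets no lower limit at 24 h, so it also kept genes well below the controls there, and the 1 added to the CPM makes D small for genes read rarely, whatever their ratio to the controls.

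All leaves were the leaf 4 of 22-day-old plants of the maize inbred B73, an established reference line, and all carried the wax barriers that enclosed a leaf segment. Enclosed segments were left without treatment (controls), infested with adult females of *O. pratensis*, the Banks grass mite, which is specialized on grasses, or of *T. urticae*, the two-spotted spider mite, which has a very broad host range, or wounded with sandpaper. Treatments began 2 or 24 h before one common harvest, so a single set of 4 control leaves served every comparison. Infested segments held 400 mites at 2 h and 200 at 24 h, and for this reason time and mite number cannot be told apart. Each of the 7 groups had 4 leaves, each the enclosed segment of a single leaf, so the p-values below measure the spread between leaves. Libraries held 14721310 to 32891100 counted reads, with a median of 26440384. The shallowest was leaf 2 of *O. pratensis* at 2 h. The marker genes of C4 leaf tissue were high in every library. Phosphoenolpyruvate carboxylase (GRMZM2G083841) ranged from 11542 to 21484 CPM and NADP-malic enzyme (GRMZM2G085019) from 4373 to 9538 CPM. As the samples were whole leaf segments, fewer cells of one type and less RNA per cell cannot be told apart.

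Spider mites pierce leaf cells with their stylets and empty them. In plants, damage of this kind is followed by calcium influx into the cytosol, which calmodulins and related proteins sense, and by a burst of jasmonate, the wound hormone. Jasmonate leads to the breakdown of JAZ proteins of the TIFY family, which otherwise repress jasmonate responses, and the genes encoding JAZ proteins are themselves switched on by the hormone, which restores repression. Transcription factors of the AP2/ERF family act early in many stress responses.

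After 2 h of *O. pratensis*, D was at least 1 in 784 genes, or 1.98% of all genes in the table. Of these 784 genes, 47 (5.99%) had D under 0.5 after 24 h of *O. pratensis*, 31 (3.95%) after 24 h of *T. urticae*, and 26 (3.32%) at both. A gene with D of at least 1 at 2 h was thus rarely under 0.5 at 24 h. Near the lower limit at 2 h, EREB56 (GRMZM2G380377, D = 1.00) and GRMZM2G340578 (1.02) were just inside and GRMZM2G063151 (0.997) and GRMZM2G095904 (0.991) just outside. For *O. pratensis* at 24 h, GRMZM5G808787 (0.47) and GRMZM2G101405 (0.45) were just inside the limit, and GRMZM5G868355 (0.67) and GRMZM2G370745 (0.68) were just outside. For *T. urticae* at 24 h, GRMZM2G165177 (0.496) and GRMZM2G317614 (0.485) were just inside, and GRMZM2G095873 (0.519) and GRMZM2G106819 (0.532) just outside.

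**Figure D1:**
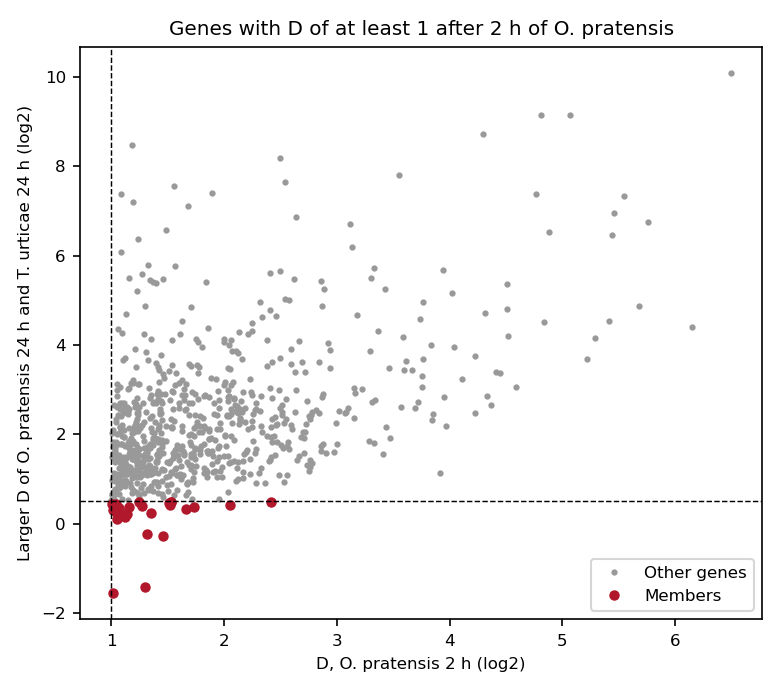
D after 2 h of *O. pratensis* (horizontal axis, log2) against the larger of the D values after 24 h of *O. pratensis* and of *T. urticae* (vertical axis, log2), for the 784 genes with D of at least 1 on the horizontal axis; dashed lines mark the limits of 1 and 0.5. The 26 members, in red, fill the strip under the lower line at the left of the plot, and the other 758 genes lie above it.

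The control mean was under 1 CPM in 13 members, or 50%, between 1 and 10 CPM in 5 and above 10 CPM in 8. It was under 1 CPM in 54.25% of all 39625 genes, from which the rule chose, and in 18.9% of all tested genes. All 26 were among the 22339 genes that passed the filter on low counts. A reference table of gene names gave a single symbol to 16 members, and only 4 of these had a name that tells what the protein is. These were TIFY25, a calmodulin, the AP2/ERF transcription factor EREB56 and cab48, a light-harvesting chlorophyll a/b protein. The remaining members are given by identifier and, where the table has one, by its LOC symbol. Names came from a table for a later assembly than the AGPv3 genome used for the counts, so no positions are given.

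Over the 26 members, the median D was 1.26 after 2 h of *O. pratensis*, 0.64 after 2 h of *T. urticae* and 1.51 after 2 h of wounding. At 24 h it was 0.17 for *O. pratensis*, 0.35 for *T. urticae* and -0.0035 for wounding. The 784 genes raised at 2 h had median D of 1.60, 0.92 and 2.98 at 2 h and of 1.71, 1.92 and 0.44 at 24 h, in the same order. D was lower with *T. urticae* than with *O. pratensis* at 2 h in all 26 members, which had been chosen on the latter. Averaged over the members, the level in a leaf, as log2(CPM + 1), was 2.20 ± 0.03 (SD, n = 4) in the controls, 3.47 ± 0.17 after 2 h of *O. pratensis*, 2.85 ± 0.18 after 2 h of *T. urticae* and 3.80 ± 0.11 after 2 h of wounding. It was 2.23 ± 0.09, 2.32 ± 0.03 and 2.30 ± 0.18 after 24 h of *O. pratensis*, *T. urticae* and wounding. Every 2-h leaf exceeded every control leaf in this average.

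Part of the small positive D at 24 h was a shift of the median tested gene that came with library totals as the divisor. With library totals as the divisor, the median D of all tested genes was 0.131, 0.234 and 0.124 after 24 h of *O. pratensis*, *T. urticae* and wounding, and -0.02, -0.0014 and -0.03 in the corresponding 2-h groups. With TMM-scaled library sizes, which remove this shift, the members' median D was 0.13, 0.19 and -0.02 in the same 3 groups. The tests below use TMM sizes.

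**Figure D2:**
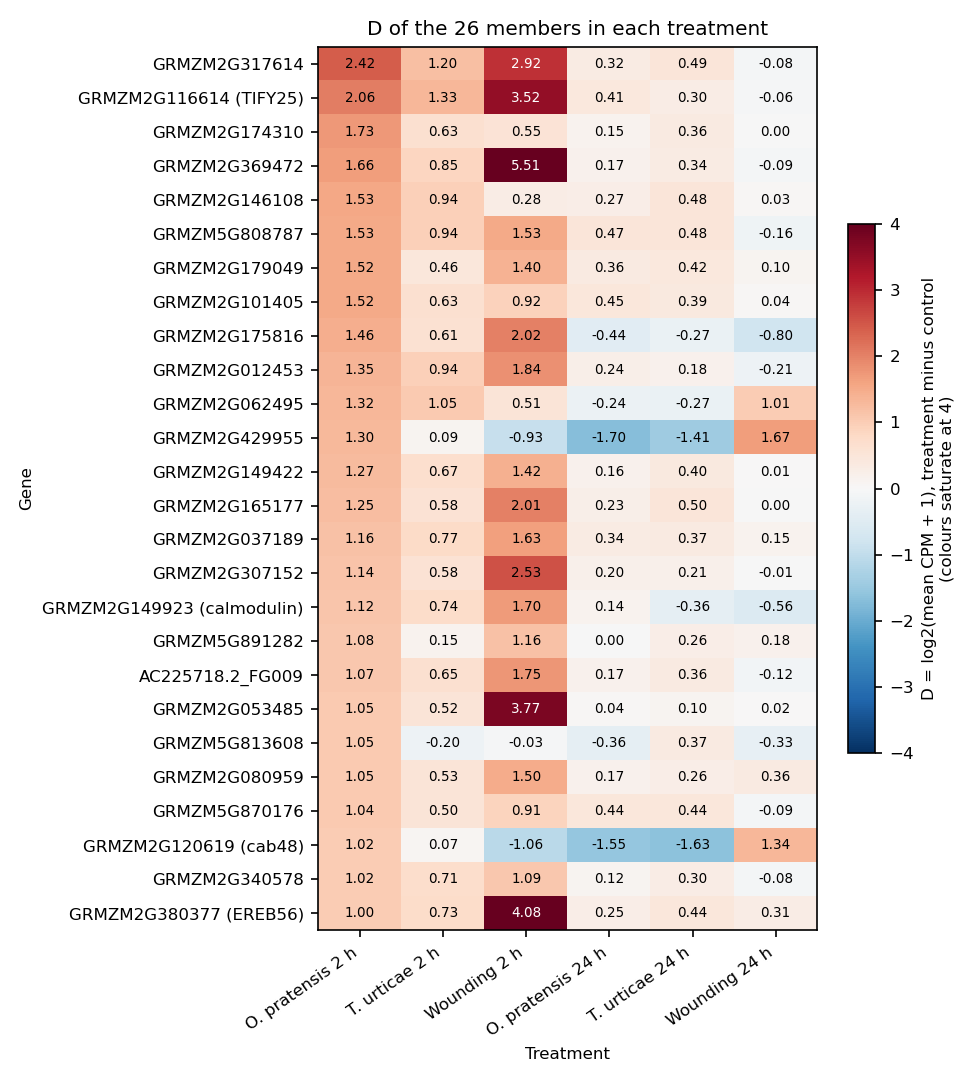
D (log2 of the group mean CPM plus 1, treatment minus control) of the 26 members, 1 row per gene in order of D after 2 h of *O. pratensis*, with the value written in each cell and 1 column per treatment; colours saturate at 4. Red fills the 2-h columns of most rows, the 24-h columns are pale, and GRMZM2G429955 and cab48 go from 1.30 and 1.02 in the first column to -1.70 and -1.55 after 24 h of *O. pratensis*.

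The leaves with *T. urticae* at 2 h and with wounding at 2 and 24 h played no part in the choice of genes, and here the members could be tested. Comparisons with the controls still share their control leaves with the rule, whereas those of wounding at 2 h with wounding at 24 h and of *T. urticae* with wounding at 2 h share none. A gene was called when edgeR's quasi-likelihood test gave both a Benjamini-Hochberg adjusted p no higher than 0.01 and a log2 fold change of 1 or more in size, fitted and adjusted over 22339 genes. Some counts below use an unadjusted p under 0.05. Their share over all tested genes was not computed, and nothing is read from them.

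After 2 h of *T. urticae*, 11 of the 26 members were called higher than the controls, beside 2.47% of all tested genes. Both edgeR and DESeq2 called 0 members lower, against 0.00895% of tested genes by edgeR, and 0 were lower at an unadjusted p under 0.05. Of the 11, GRMZM2G174310, GRMZM2G101405, GRMZM2G307152, GRMZM2G053485 and EREB56 were too rarely read in the *T. urticae* and control libraries to pass the filter there, and were tested because of other groups, including the one that chose them. With the 8 compared libraries fitted alone, 21 members were tested and 3 were called, TIFY25, GRMZM2G369472 and GRMZM2G340578. In 19 members all 4 leaves lay above all 4 controls, as they did in 5.13% of tested genes. The 5 members too rarely read for the filter were among the 19. The median log2 fold change was 1.18 over the members and 0.00 over all tested genes. Called members rose by 1.34 to 4.22 on the log2 scale, the upper end resting on a gene with 3 control reads. In 16 members, the rarely read ones included, the adjusted p was at most 0.01 at any fold change, against 3.23% of tested genes. The 5 that passed on p alone were calmodulin (0.76), GRMZM5G808787 (0.97), GRMZM2G012453 (0.98), GRMZM2G037189 (0.79) and GRMZM5G870176 (0.51), all well expressed genes. The call of GRMZM2G149422 (2.28 ± 0.47 SE) was lost without control leaf 4 (2.00, edgeR adjusted p = 0.0103) and without *T. urticae* leaf 2 (2.01, edgeR adjusted p = 0.0132). That of GRMZM2G340578 (1.66 ± 0.36) was lost without control leaf 3 or 4 (1.62 and 1.64) or *T. urticae* leaf 4 (1.46).

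More members were called after wounding. After 2 h of wounding, 20 members were called higher than the controls, against 17% of all tested genes, and in 21 members all 4 wounded leaves exceeded all 4 controls, against 25.8%. Lower calls were 0 by edgeR, against 8.47% of tested genes, 0 by DESeq2 and 0 at an unadjusted p under 0.05. Their median log2 fold change was 2.18 and that of all tested genes -0.03. Rises of the called members ranged from 1.31 to 7.83 on the log2 scale. Of these, GRMZM2G174310 was too rarely read in the wounded and control libraries to pass the filter there. It was tested because of other groups, including the one that chose it. The members called with *T. urticae* included 10 of these 20, and the other 10 were called with wounding alone, which does not by itself show that the treatments differ.

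The direct comparison of the treatments at 2 h did show such a difference for part of the set. In 13 members the level with *T. urticae* was called lower than with wounding, by 1.14 to 5.52 on the log2 scale, against 15% of all tested genes. A single member, GRMZM2G146108, was called higher with *T. urticae* than with wounding, against 6.55% of tested genes. The median log2 difference was -1.06 over the members and 0.03 over all tested genes. GRMZM5G891282 (-1.14 ± 0.22) was no longer called without wounded leaf 2 (-0.87), and GRMZM2G149422 (-1.32 ± 0.35) without *T. urticae* leaf 1 (-1.16, edgeR adjusted p = 0.0102) or wounded leaf 2 (-1.01, edgeR adjusted p = 0.0179).

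Members also differed between the early and the late wounded leaves. In 21 members the level was called higher 2 h after wounding than 24 h after it, against 14.7% of all tested genes, and in the same number all 4 early leaves exceeded all 4 late leaves, against 22.2%. Of the 21 called, GRMZM2G174310 was too rarely read in the early and late wounded libraries to pass the filter there. It was tested because of other groups, including the one that chose it. Called lower at 2 h than at 24 h were 0 members by edgeR, against 10.4% of tested genes, and 0 by DESeq2, with 2 at an unadjusted p under 0.05, the irregular genes cab48 and GRMZM2G429955 described further on. The median log2 difference was 2.69 over the members and -0.08 over all tested genes, and the called differences ranged from 1.19 to 8.49. GRMZM5G891282 (1.26 ± 0.22) fell just under the fold limit without wounded leaf 2 of the 2-h group (0.996).

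At 24 h after wounding, edgeR called 0 members higher and 0 lower than the controls, against 7.8% and 0.81% of all tested genes. DESeq2 also called 0. In the late wounded and control libraries alone 9 members were too rarely read to pass the filter and were tested because of other groups, so the 0 says little of these. At an unadjusted p under 0.05, for which no share over all tested genes was computed, 1 member was higher (EREB56, 1.5 ± 0.65). At the same threshold 3 were lower (calmodulin, GRMZM2G175816 and GRMZM5G870176, the last by -0.25 ± 0.11). The median log2 fold change was -0.20 over the members and 0.00 over all tested genes. The 2 lower members with an adjusted p of at most 0.01 at any fold change were GRMZM2G175816 (-0.98 ± 0.22, edgeR adjusted p = 0.00135) and calmodulin (-0.74 ± 0.15, edgeR adjusted p = 5.76e-04), against 8.19% of tested genes. GRMZM2G175816 was called lower without control leaf 2 (-1.23), without wounded leaf 3 (-1.11) and with no filter on low counts (-1.02).

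**Figure D3:**
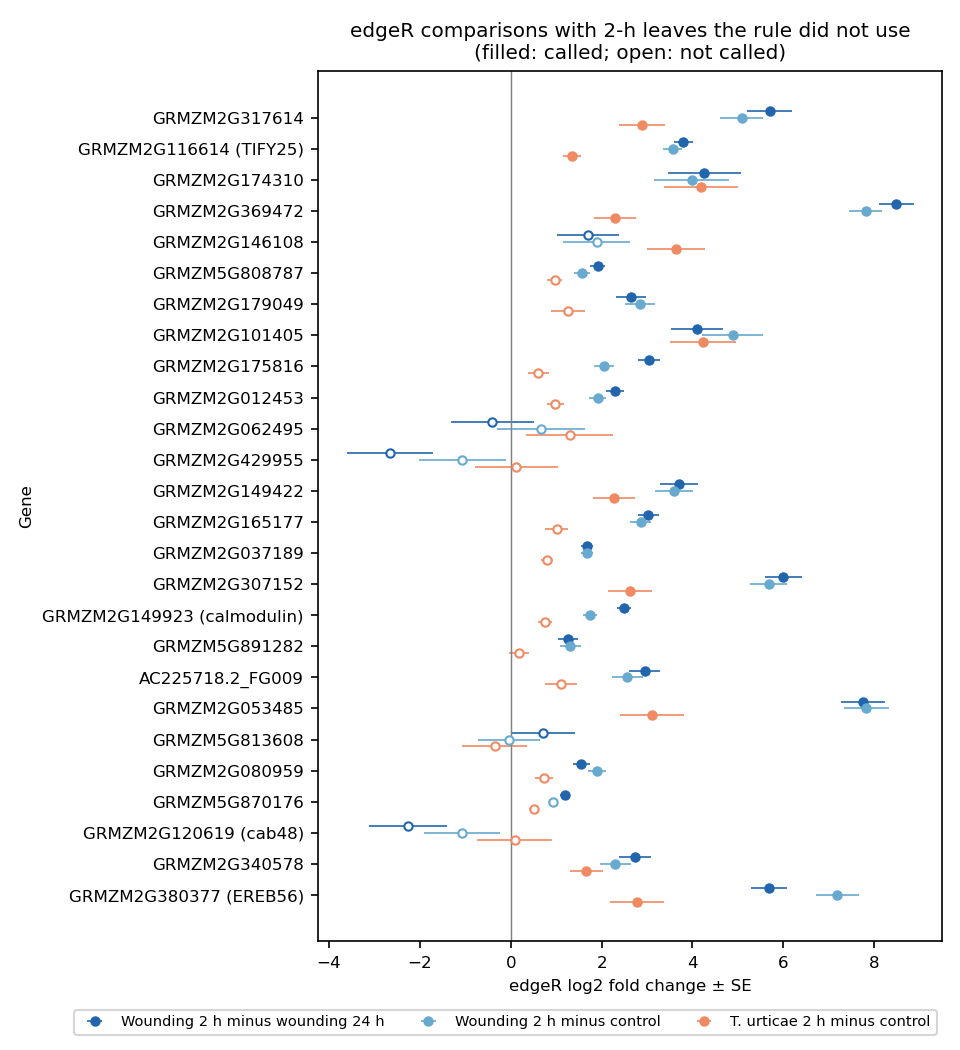
Fitted edgeR log2 fold change (horizontal axis, points, with bars of 1 SE) of the 26 members in 3 comparisons, wounding at 2 h against wounding at 24 h (dark blue), wounding at 2 h against controls (light blue) and *T. urticae* at 2 h against controls (orange); filled points were called and open points were not. Blue points reach 8.49 and orange points 4.22, and the comparisons of GRMZM2G174310 and GRMZM2G101405 with the controls rest on 3 control reads each, and their dark blue points on 3 and 7 reads at 24 h.

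TIFY25 (GRMZM2G116614, LOC100384222, also listed as ZIM28) was the one JAZ/TIFY gene among the members. It stood at 27.1, 39.0, 41.3 and 34.8 CPM in control leaves 1 to 4. After 2 h it stood at 131, 195, 132 and 146 CPM on leaves with *O. pratensis*, at 86.6, 94.5, 75.5 and 106 CPM with *T. urticae*, and at 452, 582, 341 and 295 CPM with wounding. None of these 12 leaves overlapped the controls, and the 3 treatments did not overlap each other. After 24 h the levels were 51.9, 36.6, 51.8 and 50.4 CPM for *O. pratensis* leaves, 47.4, 48.4, 35.6 and 43.9 CPM for *T. urticae* leaves, and 36.3, 36.4, 37.9 and 25.5 CPM for wounded leaves, and all 3 groups overlapped the controls. TIFY25 rose by 1.34 ± 0.19 (SE) on the log2 scale with *T. urticae* (edgeR adjusted p = 2.03e-05) and by 3.56 ± 0.21, or 11.8-fold, with wounding at 2 h (edgeR adjusted p = 4.68e-14). It was 3.79 ± 0.21 higher at 2 h than at 24 h after wounding, and at 24 h it differed from the controls by -0.23 ± 0.19 (edgeR adjusted p = 0.365).

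The rule left out all other JAZ/TIFY genes. Of all 784 genes with D of at least 1 after 2 h of *O. pratensis*, it kept 3.32%. The table gave 21 genes a TIFY or ZIM name, all of them tested, and 15 had D of at least 1 after 2 h of *O. pratensis*, of which TIFY25 alone met the limits at 24 h that the rule sets. In the other 14, left out by those limits, D ranged from 0.55 to 4.10 after 24 h of *O. pratensis*, with a median of 2.34, and from 0.53 to 4.18 after 24 h of *T. urticae*, with a median of 2.5. TIFY15 (GRMZM2G005954) was nearest to the limits, with D of 1.09 at 2 h and of 0.55 and 0.53 at 24 h. TIFY24 (GRMZM2G126507) was under the limits at 24 h, with 0.46 for both mites, but had D of 0.75 at 2 h. Of the 21 genes, 11 were called higher after 2 h of *T. urticae* (2.47% of tested genes), 17 after 2 h of wounding (17%) and 2 after 24 h of wounding (7.8%), and 17 were called higher at 2 h than at 24 h after wounding (14.7%). Their median log2 fold change was 3.78 at 2 h and 0.06 at 24 h after wounding, beside -0.03 and 0.00 over all tested genes. Among 24 named genes of jasmonate synthesis (lipoxygenases, allene oxide synthases and cyclases, and oxophytodienoate reductases), 11 had D of at least 1 after 2 h of *O. pratensis*. None of these was a member, where the rule kept 3.32% of all such genes, so nothing is read from it. Members without a functional name could not be matched to a family.

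The calmodulin gene GRMZM2G149923 (LOC606468) encodes a calcium sensor. Its level was 31.3, 31.6, 24.9 and 25.7 CPM in the controls. It was 60.4, 83.2, 57.6 and 49.9 CPM after 2 h of *O. pratensis*, 45.9, 54.3, 41.2 and 50.3 CPM after 2 h of *T. urticae*, and 93.0, 116, 80.3 and 87.1 CPM after 2 h of wounding. Each of these 3 groups lay wholly above the controls. After 24 h it was 39.8, 30.2, 22.6 and 32.9 CPM with *O. pratensis*, across the control range. With *T. urticae* it was 21.7, 24.8, 17 and 24 CPM, all under the lowest control, and with wounding it was 17.9, 18.3, 20.3 and 19.4 CPM, again all under the lowest control. Calmodulin rose by 1.75 ± 0.15 on the log2 scale after 2 h of wounding (edgeR adjusted p = 1.87e-10) and was 2.49 ± 0.16 higher at 2 h than at 24 h. Among 14 genes with a calmodulin or calcineurin B-like name, of which 12 were tested, it was the one gene with D of at least 1 after 2 h of *O. pratensis*. Of the 12, 3 were called higher and 1 lower after 2 h of wounding, shares near the 17% and 8.47% of all tested genes.

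EREB56 (GRMZM2G380377, LOC100384479, also DBP4), a transcription factor of the AP2/ERF family, was close to absent from control leaves and had the lowest D of all members after 2 h of *O. pratensis*. Control levels were 0.186, 0.167, 0.112 and 0 CPM. They were 1.80, 1.56, 0.681 and 0.912 CPM after 2 h of *O. pratensis* and 0.396, 1.26, 1.01 and 0.730 CPM after 2 h of *T. urticae*, all above the controls but under 2 CPM. Wounded leaves at 2 h held 15.4, 23.9, 19 and 13.1 CPM. At 24 h it held 0.456, 0.248, 0.127 and 0.492 CPM with *O. pratensis* and 0.298, 0.134, 0.882 and 0.206 CPM with wounding, overlapping the controls, but 0.440, 0.557, 0.474 and 0.584 CPM with *T. urticae*, all above the highest control. EREB56 rose by 7.19 ± 0.47 on the log2 scale with wounding at 2 h (edgeR adjusted p = 5.34e-13) and was 5.68 ± 0.40 higher than at 24 h, and with *T. urticae* it was 4.40 ± 0.37 lower than with wounding (edgeR adjusted p = 1.17e-10). Its rise with *T. urticae*, 2.78 ± 0.59, was no longer called without control leaf 4 (2.44), *T. urticae* leaf 2 (2.55) or *T. urticae* leaf 3 (2.66). EREB56 did not pass the filter with the *T. urticae* and control libraries alone. Of 39 genes with an AP2/ERF name, 30 were tested and 2 had D of at least 1 after 2 h of *O. pratensis*. EdgeR called 16 of the 30 higher and 1 lower after 2 h of wounding (17% and 8.47% of tested genes), 3 higher after 2 h of *T. urticae* (2.47%), and 15 higher and 2 lower at 2 h than at 24 h after wounding (14.7% and 10.4%).

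**Figure D4:**
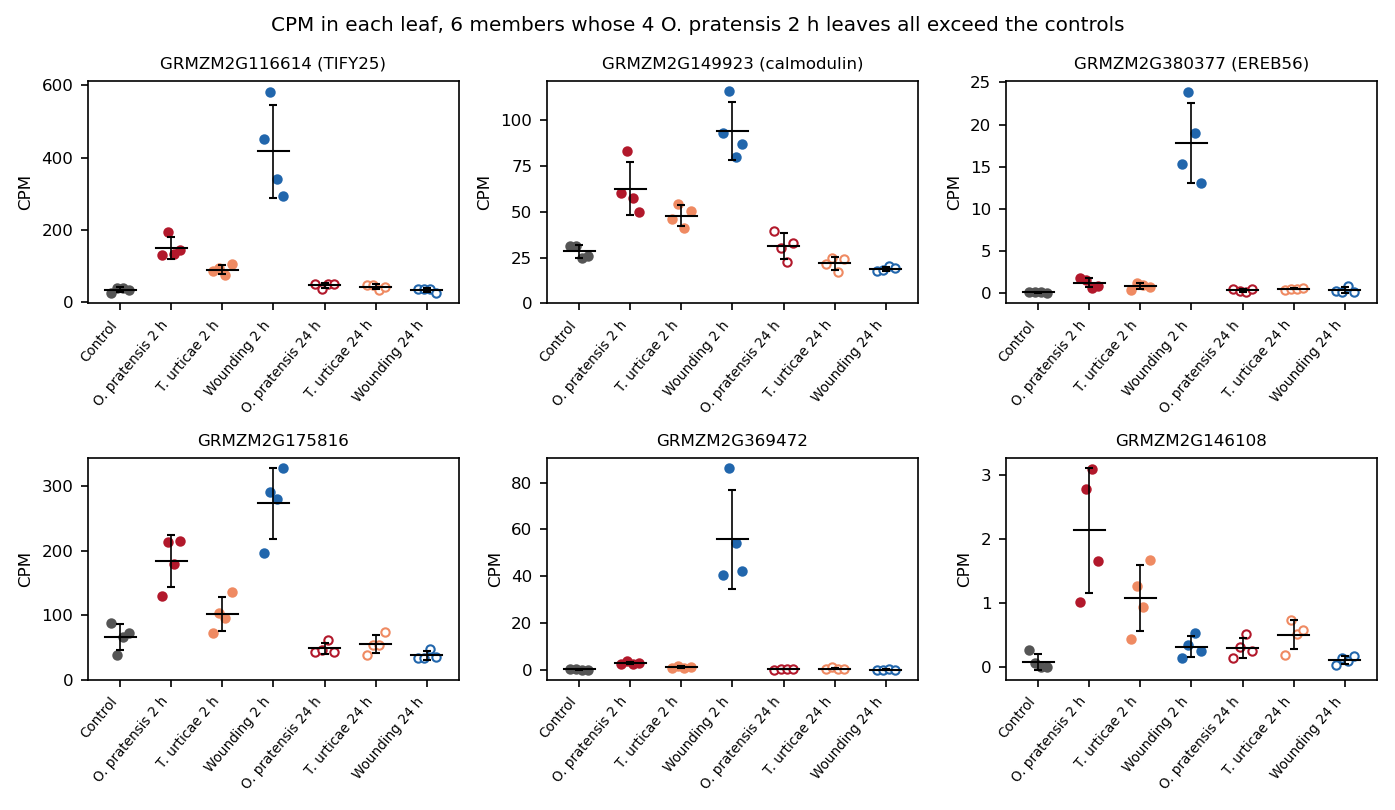
CPM in each of the 28 leaves (vertical axis) by group (horizontal axis) for TIFY25, calmodulin, EREB56, GRMZM2G175816, GRMZM2G369472 and GRMZM2G146108; points are leaves, filled at 2 h and open at 24 h, and the line and bars give the mean and 1 SD of 4 leaves. In 5 of the panels the highest points are those of wounding at 2 h, and in GRMZM2G146108 the highest are those of *O. pratensis* at 2 h, between 1.01 and 3.09 CPM.

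Several members with no functional name shared the profile of EREB56, with a much larger rise under wounding than under mites. Their levels under mites were low in CPM, but so were the controls, and the rise on the log2 scale was not small. GRMZM2G369472 (LOC100283357) stood at 0.373, 0.334, 0.150 and 0.122 CPM in the controls and at 2.66, 3.80, 2.54 and 2.77 CPM after 2 h of *O. pratensis*. It reached 40.6, 86.2, 54.1 and 42.3 CPM after 2 h of wounding and was between 0.0993 and 0.304 CPM 24 h after wounding. The rise with wounding was 7.81 ± 0.37 on the log2 scale (edgeR adjusted p = 8.00e-16) and the fall to 24 h was 8.49 ± 0.38. With *T. urticae* it rose by 2.29 ± 0.46 over the controls and lay 5.52 ± 0.31 below wounding.

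GRMZM2G053485 (LOC100278716) was detected in 2 of the 4 control leaves, at 0.134 and 0.0811 CPM. It stood at 1.05, 1.83, 1.13 and 0.736 CPM after 2 h of *O. pratensis*, at 0.308, 0.778, 0.487 and 0.487 CPM after 2 h of *T. urticae*, and at 10.5, 21.7, 13.2 and 8.16 CPM after 2 h of wounding. No 24-h leaf exceeded 0.300 CPM. It rose by 7.83 ± 0.50 with wounding and by 3.11 ± 0.69 with *T. urticae*, and the latter call was lost without control leaf 1 (2.72), control leaf 3 (2.76) or *T. urticae* leaf 2 (2.86). GRMZM2G307152 (LOC100280906) went from 0.0749 to 0.149 CPM in the controls to 1.04 to 1.97 CPM with *O. pratensis* and 4.51 to 7.25 CPM with wounding, and rose by 5.68 ± 0.40 with wounding and by 2.62 ± 0.49 with *T. urticae*. Neither GRMZM2G307152 nor GRMZM2G053485 passed the filter with the *T. urticae* and control libraries alone. Both were tested there because of other groups, including the one that chose them. In these 3 genes and in EREB56, the 4 leaves of wounding at 2 h lay above every other leaf.

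GRMZM2G317614 (LOC100280684) had the largest D of all members after 2 h of *O. pratensis*, 2.42. Its 4 leaves there held 3.49, 8.49, 6.31 and 4.35 CPM, against 0.597, 0.234, 0.112 and 0.0405 CPM in the controls. With *T. urticae* at 2 h it held 0.792, 2.48, 1.14 and 3.04 CPM, and with wounding at 2 h 8.88, 11.2, 7.2 and 6.46 CPM, so that the wounded leaves overlapped those with *O. pratensis* and lay above those with *T. urticae*. The rise was 5.08 ± 0.47 on the log2 scale with wounding (edgeR adjusted p = 5.09e-10) and 2.89 ± 0.51 with *T. urticae* (edgeR adjusted p = 3.61e-04), the latter no longer called with the 8 compared libraries alone (2.88, edgeR adjusted p = 0.0225). Leaves with *T. urticae* at 24 h held 0.379 to 1.07 CPM, partly above the highest control, and those 24 h after wounding 0.10 to 0.365 CPM.

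GRMZM2G175816 (LOC100194205) had a mean under that of the controls in all 3 treatments at 24 h, with D of -0.44 for *O. pratensis*, -0.27 for *T. urticae* and -0.80 for wounding. It stood at 87.5, 38.8, 66.9 and 73.2 CPM in the controls, at 129, 214, 180 and 215 CPM after 2 h of *O. pratensis*, at 72.8, 103, 95.4 and 136 CPM after 2 h of *T. urticae* and at 197, 291, 280 and 328 CPM after 2 h of wounding. After 24 h it stood at 43.4, 47.0, 61.1 and 43.9 CPM, at 39.2, 53.7, 54.1 and 73.6 CPM and at 34.0, 34.6, 47.2 and 35.4 CPM in the same order. Late wounded leaf 3, at 47.2 CPM, and control leaf 2, at 38.8 CPM, were the pair that overlapped. It rose by 2.05 ± 0.23 with wounding at 2 h (edgeR adjusted p = 1.32e-08), its difference with *T. urticae* was 0.61 ± 0.22 (edgeR adjusted p = 0.145), and it was 3.04 ± 0.24 higher at 2 h than at 24 h after wounding.

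In 10 members, chosen on their level with *O. pratensis*, D after 2 h of that mite exceeded D after 2 h of wounding, and 4 of these had a control mean under 1 CPM, GRMZM2G146108, GRMZM2G174310, GRMZM2G101405 and GRMZM2G179049. GRMZM2G146108, with no symbol, stood at 0.261, 0.0668, 0 and 0 CPM in the controls. It stood at 1.01, 2.79, 3.09 and 1.65 CPM after 2 h of *O. pratensis*, at 0.440, 1.26, 0.934 and 1.66 CPM after 2 h of *T. urticae* and at 0.143, 0.343, 0.525 and 0.259 CPM after 2 h of wounding. The wounded leaves overlapped the controls and those with *O. pratensis* did not overlap the wounded leaves. Against wounding, *T. urticae* was higher by 1.74 ± 0.51 on the log2 scale (edgeR adjusted p = 0.00508), a call lost without *T. urticae* leaf 2 (1.62) or 4 (1.45) and without wounded leaf 1 (1.48), 2 (1.79) or 4 (1.65). Its rise with *T. urticae* over the controls was 3.63 ± 0.63 (edgeR adjusted p = 2.96e-04), no longer called with the 8 compared libraries alone (3.62, edgeR adjusted p = 0.0160), and its difference with wounding was 1.89 ± 0.74 (edgeR adjusted p = 0.0294).

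GRMZM2G174310 (LOC100276385) had 3 reads in all 4 control libraries together, and GRMZM2G101405, with no symbol, also had 3. For such genes the ratio of pooled reads, scaled to the library totals, is given with its exact 95% interval, which covers counting error only. GRMZM2G174310 had 221 reads after 2 h of *O. pratensis* (1.46, 2.65, 2.18 and 3.33 CPM), 54 after 2 h of *T. urticae* and 54 after 2 h of wounding. The ratio to the controls was 86.7 (29.3 to 424) with *O. pratensis*, 21 (6.82 to 105) with *T. urticae* and 18.1 (5.86 to 90.2) with wounding. GRMZM2G101405 had 171, 56 and 101 reads in the same groups, and ratios of 67.1 (22.6 to 328), 21.8 (7.09 to 109) and 33.8 (11.2 to 166). The 3 ratios of a gene share the same 3 control reads, so their overlapping intervals do not compare the treatments. At 2 h, leaves of GRMZM2G174310 with *O. pratensis* lay above those with *T. urticae* (0.365 to 0.852 CPM) and with wounding (0.114 to 0.850 CPM). In GRMZM2G101405 the leaves with *O. pratensis* (0.938 to 2.38 CPM) overlapped those with *T. urticae* (0.176 to 1.05 CPM) and with wounding (0.573 to 1.45 CPM). Contrasts with *O. pratensis* were not tested, as it chose the genes. Both were called higher than the controls with *T. urticae* and with wounding at 2 h, but neither passed the filter with the *T. urticae* and control libraries alone, nor GRMZM2G174310 with the wounded and control libraries alone. At 24 h GRMZM2G101405 held 42 reads with *O. pratensis* (0.351, 0.354, 0.551 and 0.369 CPM) and 30 with *T. urticae* (0.342, 0.300, 0.569 and 0.18 CPM), in every leaf above the highest control at 0.0374 CPM. GRMZM2G174310 held 14 and 28 reads, and its leaves with *T. urticae*, at 0.147 to 0.474 CPM, lay above the highest control at 0.1 CPM.

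GRMZM5G870176 (LOC100383550) stood at 57.1, 54.7, 49.5 and 49.6 CPM in the controls, at 97.6, 123, 107 and 111 CPM after 2 h of *O. pratensis*, at 65.6, 82.1, 71.6 and 80.7 CPM after 2 h of *T. urticae* and at 94.8, 117, 105 and 81.1 CPM after 2 h of wounding. These 3 groups lay wholly above the controls, and so did both mite groups at 24 h, with 64.9 to 77.1 CPM and 64.7 to 76.3 CPM. Its fitted difference with wounding at 2 h was 0.94 ± 0.11 (edgeR adjusted p = 2.87e-08), just under the fold limit, and 1.02 without wounded leaf 4. It was 1.19 ± 0.11 higher at 2 h than at 24 h after wounding.

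GRMZM2G037189 (LOC100282334) stood at 40.8 to 54.2 CPM in the controls, 90.7 to 125 CPM after 2 h of *O. pratensis*, 73.1 to 87.5 CPM after 2 h of *T. urticae* and 116 to 192 CPM after 2 h of wounding, without overlap with the controls in any. It rose by 1.67 ± 0.14 with wounding at 2 h, and at 24 h after wounding it differed from the controls by -0.01 ± 0.13. GRMZM5G808787, with no symbol, and GRMZM2G012453, whose identifier matched more than a single symbol, stood at 19.3 to 31.9 and 13.3 to 24.9 CPM in the controls, and rose by 1.57 ± 0.17 and 1.91 ± 0.19 with wounding. Only reads with a unique best place were counted, which can lower the count of any gene that has a close duplicate.

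Of the remaining members, GRMZM2G179049 (LOC107275227), GRMZM2G149422, GRMZM2G165177, AC225718.2_FG009, GRMZM2G080959 (LOC100278490), GRMZM2G340578 and GRMZM5G891282 (LOC100284292) were all called higher after 2 h of wounding, by 1.31 (GRMZM5G891282) to 3.59 (GRMZM2G149422) on the log2 scale. GRMZM5G891282 gave the smallest difference of them with *T. urticae* at 2 h, 0.18 ± 0.23. It stood at 6.86, 5.61, 4.23 and 6.16 CPM in the controls and at 5.63, 8.66, 4.83 and 6.69 CPM with *T. urticae*, but at 12, 14.1, 11.3 and 15.3 CPM with *O. pratensis*. The leaves with *T. urticae* thus overlapped the controls and lay wholly below those with *O. pratensis*, a difference that was not tested because the latter chose the gene.

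In 22 members all 4 leaves with *O. pratensis* at 2 h exceeded all 4 controls. Both groups chose the genes and the share over all genes was not computed, so nothing is read from this count. Within these 22, single leaves of a group were often highest together. How often the same leaves were highest over all genes was not computed, so this is not a trait of the members. *O. pratensis* leaf 2 was the highest of its 2-h group in 16 members, and it was also the shallowest library. Wounded leaf 2 was the highest of the 2-h wounded leaves in 18 members. With *T. urticae* at 2 h, leaves 2 and 4 were highest in 10 and 12 members and leaves 1 and 3 lowest in 12 and 10. Wounded leaf 3 was highest at 24 h in 15. Of the leaves just named, the rule used only *O. pratensis* leaf 2, and the part of that leaf was measured by leaving it out. Without *O. pratensis* leaf 2 the rule kept 21 genes, 19 of them among the 26, and EREB56, calmodulin, GRMZM2G053485, AC225718.2_FG009, GRMZM2G080959, GRMZM5G870176 and GRMZM5G813608 were lost. Over 16 rules that each left out 1 leaf, 9 members were always kept. They were GRMZM2G174310, GRMZM2G369472, GRMZM2G179049, GRMZM2G101405, GRMZM2G175816, GRMZM2G012453, GRMZM2G149422, GRMZM2G037189 and GRMZM2G307152.

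A value under the rule's limit at 24 h did not place a gene within the range of the controls. All 4 leaves lay above all 4 controls in 3 members after 24 h of *O. pratensis* (GRMZM5G808787, GRMZM2G101405 and GRMZM5G870176), against 30.2% of tested genes. They did so in 9 members after 24 h of *T. urticae*, against 37.7%. These were GRMZM2G174310, GRMZM2G179049, GRMZM2G101405, GRMZM2G149422, GRMZM2G165177, GRMZM2G037189, GRMZM5G870176, GRMZM2G340578 and EREB56. Both contrasts were used by the rule, and nothing is read from these shares.

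The other 4 members owed their place to single leaves. Cab48 (GRMZM2G120619, LOC103651575), a light-harvesting protein of the photosynthetic antenna, stood at 84.0, 18.6, 112 and 490 CPM after 2 h of *O. pratensis* and at 48.2, 109, 94.2 and 94.7 CPM in the controls, so that only leaf 4 was clearly above them. GRMZM2G429955, with no symbol, stood at 11.2, 1.49, 10.5 and 78.5 CPM after 2 h of *O. pratensis* and at 2.05, 16.6, 7.94 and 12.3 CPM in the controls. Without leaf 4 of *O. pratensis*, D at 2 h was -0.27 for cab48 and -0.30 for GRMZM2G429955. The same leaf was highest for both genes in 6 of the 7 groups, and the same leaf was lowest in 6 of 7. Both were also very high in leaf 3 of wounding at 24 h, at 498 and 82.1 CPM, where the other leaves held 68.5 to 189 and 9.07 to 27.6 CPM. At 24 h cab48 stood at 11.8 to 74.6 CPM under *O. pratensis* and 8.22 to 47.8 CPM under *T. urticae*, below most controls. Neither gene was called in any of the 5 comparisons. The difference between 2 and 24 h after wounding was -2.26 ± 0.86 for cab48 (edgeR adjusted p = 0.0260) and -2.66 ± 0.95 for GRMZM2G429955 (edgeR adjusted p = 0.0178).

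The other 6 genes with a light-harvesting name, a list added after the values were seen, had D between -0.09 and 0.12 after 2 h of *O. pratensis*, between -1.12 and -0.37 after 24 h of it and between -1.51 and -0.70 after 24 h of *T. urticae*.

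GRMZM5G813608 stood at 14.3 CPM in leaf 2 of *O. pratensis* at 2 h and at 1.09, 1.04 and 0.736 CPM in the other leaves, below the 1.34 to 1.72 CPM of the controls. Without leaf 2 its D was -0.38. GRMZM2G062495 (LOC100382658) was either low or high in a leaf, with 11 leaves of the 28 at or under 0.899 CPM, 17 at or over 4.51 CPM and none between. Controls held 0.447, 0.334, 0.899 and 10.2 CPM, and leaf 4 was also the single high leaf of both mite groups at 24 h, at 7.87 and 7.77 CPM. Every leaf with a mite at 2 h was high, at 6.45 to 12.1 CPM under *O. pratensis* and 5.84 to 9.05 CPM under *T. urticae*. Without control leaf 4, D was 2.67 after 2 h of *O. pratensis*, 1.11 after 24 h of it and 1.08 after 24 h of *T. urticae*, and the rule no longer kept the gene. Neither gene was called in any comparison.

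**Figure D5:**
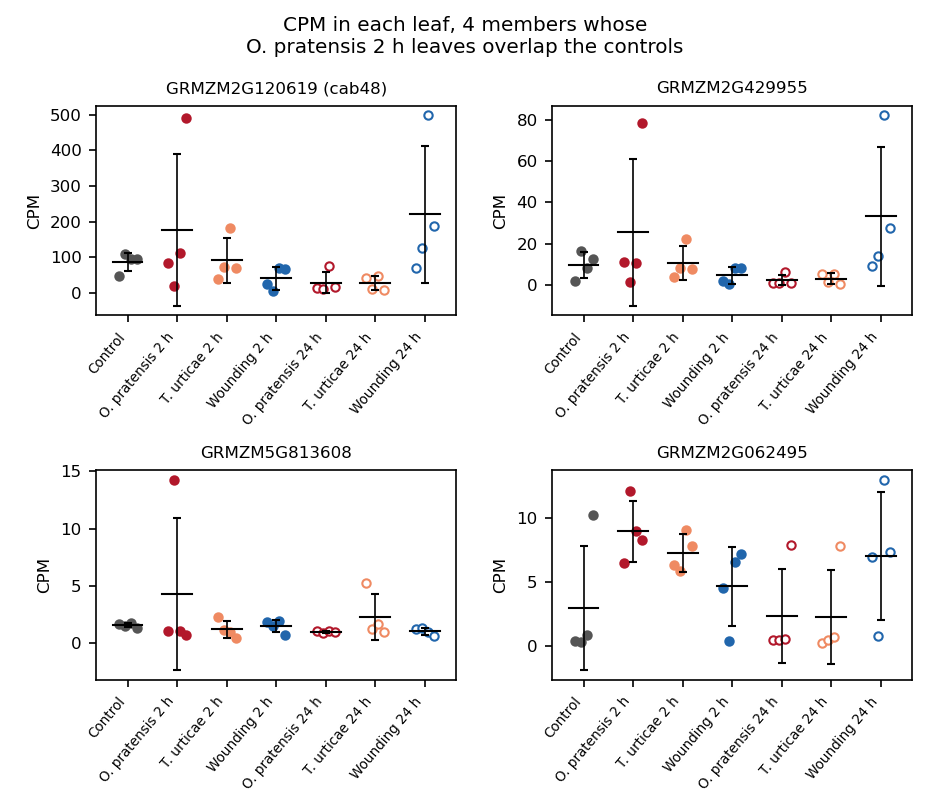
CPM in each of the 28 leaves (vertical axis) by group (horizontal axis) for cab48, GRMZM2G429955, GRMZM5G813608 and GRMZM2G062495; points are leaves, filled at 2 h and open at 24 h, and the line and bars give the mean and 1 SD of 4 leaves. Single leaves at 490, 78.5 and 14.3 CPM set the *O. pratensis* 2-h means of the first 3 genes, and GRMZM2G062495 falls into a low band and a high band of leaves.

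For comparison, the other 758 genes with D of at least 1 after 2 h of *O. pratensis* were called higher in 62.8% of cases after 2 h of *T. urticae*, in 95.7% after 2 h of wounding and in 31.3% after 24 h of wounding. They were called higher at 2 h than at 24 h after wounding in 91.8% of cases, and lower with *T. urticae* than with wounding at 2 h in 84.3%. Both sets of genes were chosen with the control leaves used in the first 3 of these comparisons, and no test between the sets was made.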

How the data were processed

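Poly(A) RNA of 28 maize leaf segments had been sequenced from strand-specific libraries. With STAR 2.5.2b the authors placed reads on the AGPv3 genome, counted those with a unique position per gene with HTSeq 0.6.0, and deposited these raw counts without normalization for 39625 genes. Groups came from the sample labels.

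The 26 members and all gene lists were chosen with earlier results of these data known. D used CPM from library totals and a pseudocount of 1. Tests used edgeR 4.0.16 in R 4.3.3 on the deposited counts. Genes were kept by filterByExpr (22339 genes), scaled by TMM, and all 28 libraries were fitted in a single quasi-likelihood model with a mean per group. P-values were adjusted over all tested genes by the Benjamini-Hochberg method, and SE is the fold change divided by the root of F. With 3 reads or fewer in a denominator, ratios have exact (Clopper-Pearson) 95% intervals. Library totals ran from 14721310 to 32891100 reads, and counting error enters every value under 1 CPM.

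Named members were the 10 with the largest D, up to 3 called members with the largest rise and fall per comparison that did not overlap, members with a functional name, and genes next to each limit. The remaining members were added after their values were seen. Families were matched by symbol or synonym, through a name table of a later assembly that gave a single symbol to 18539 genes and more than a single symbol to 521. Alternatives were DESeq2 1.42.0, RLE factors, no filter, the 8 compared libraries alone, the replicate number as a block, an adjusted p of at most 0.05 at any fold, leaving out each leaf, and other settings of the rule. The script was tested on simulated counts with 200 changed genes, all with control means over 1 CPM. That test does not cover the 13 members with control means under 1 CPM. Sequences and promoter motifs were not used here.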

Additional observations from a re-analysis of the deposited data

Results flagged for a closer look

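Each of the 182 groups of 4 leaves (26 genes in 7 groups) was examined for a single leaf far from the other 3 by Dixon's test. At its 95% level, which by chance marks about 1 group in 20, 19 groups were marked. The rule used 4 of the 7 groups and can favour genes with a single extreme leaf there. Some values also stand for few reads. The 19 are therefore not compared with the chance rate. The values below are CPM in the leaf named.

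Leaf 4 of *O. pratensis* at 2 h stood far above the others for GRMZM2G429955 (78.5), and leaf 2 of the same group for GRMZM5G813608 (14.3). GRMZM2G062495 was far above the others in leaf 4 of the controls (10.2), of *O. pratensis* at 24 h (7.87) and of *T. urticae* at 24 h (7.77). Cab48 (GRMZM2G120619) and GRMZM2G429955 were high in leaf 3 of *O. pratensis* at 24 h (74.6 and 6.06), where GRMZM2G101405 was also high (0.551). Leaf 3 of wounding at 24 h was high for GRMZM2G317614 (0.365), GRMZM2G174310 (0.0912) and GRMZM2G175816 (47.2). The remaining marked leaves were leaf 2 of *O. pratensis* at 24 h for TIFY25 (GRMZM2G116614, low at 36.6), leaf 4 of wounding at 24 h for TIFY25 (low at 25.5), control leaf 2 for GRMZM2G174310 (0.10), control leaf 4 for GRMZM2G101405 (low at 0), leaf 2 of *T. urticae* at 24 h for GRMZM2G369472 (1.11), leaf 2 of wounding at 2 h for GRMZM2G307152 (7.25), leaf 1 of *T. urticae* at 24 h for GRMZM5G813608 (5.28) and leaf 1 of *O. pratensis* at 24 h for GRMZM2G340578 (low at 0.246). In GRMZM2G174310 and GRMZM2G101405 the control values stand for 3 reads in all.

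The effect of wounding differed between 2 and 24 h in 21 members by edgeR's test of that difference, in which the shared controls cancel. Of these, GRMZM2G174310 did not pass the filter with the early and late wounded libraries alone. The log2 differences, 2 h over 24 h, were 8.49 for GRMZM2G369472, 7.75 for GRMZM2G053485, 6.0 for GRMZM2G307152, 5.70 for GRMZM2G317614 and 5.68 for EREB56 (GRMZM2G380377). They were 4.26 for GRMZM2G174310 (on 3 late reads in all, a ratio of 20.4 with an exact 95% counting interval of 6.61 to 102), 4.11 for GRMZM2G101405, 3.79 for TIFY25, 3.71 for GRMZM2G149422, 3.04 for GRMZM2G175816, 3.03 for GRMZM2G165177, 2.95 for AC225718.2_FG009, 2.74 for GRMZM2G340578, 2.65 for GRMZM2G179049, 2.49 for calmodulin (GRMZM2G149923) and 2.29 for GRMZM2G012453. They were 1.91 for GRMZM5G808787, 1.68 for GRMZM2G037189, 1.56 for GRMZM2G080959, 1.26 for GRMZM5G891282 and 1.19 for GRMZM5G870176.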

How the results depend on the processing

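Which genes the rule kept depended on its settings. With a pseudocount of 0.5 it kept 26 genes, 17 of them among the members, with a pseudocount of 2 it kept 18 (14 shared), and with group medians 25 (18 shared). With TMM library sizes 45 genes were kept, which included all 26. With a limit of 0 at 24 h 4 were kept, GRMZM2G175816, GRMZM2G062495, GRMZM2G429955 and cab48. All but the first of these owed their place to single leaves. Leaving out 1 leaf at a time gave 21 to 35 genes. The count called after 2 h of *T. urticae* was 11, with 3 when the 8 compared libraries were fitted alone, 18 at an adjusted p of at most 0.05 with any fold change, and 8 to 14 with a leaf left out. In the fit of 8 libraries 5 members did not pass the filter. The count for wounding at 24 h against controls was 0, with 1 under no filter, 2 at the looser threshold and 0 to 1 with a leaf left out. With a leaf left out, 20 to 21 members were called for wounding at 2 h against controls, 20 to 21 for wounding at 2 h against 24 h, and 11 to 15 in either direction for *T. urticae* against wounding at 2 h.

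Directions changed, with a leaf left out, in members that were not called. After 2 h of *T. urticae* against controls, GRMZM2G429955 ranged from -0.60 (without *T. urticae* leaf 3) to 0.48 and was -0.20 without control leaf 1, cab48 ranged from -0.54 (without *T. urticae* leaf 3) to 0.36 and was -0.11 without control leaf 1, and GRMZM5G891282 ranged from -0.0017 (without *T. urticae* leaf 2) to 0.28. After 2 h of wounding against controls, GRMZM5G813608 ranged from -0.19 to 0.19 (without wounded leaf 4) and was 0.07 without control leaf 3. Between 2 and 24 h of wounding, GRMZM2G062495 ranged from -0.71 to 0.0836 (without late wounded leaf 3), and between *T. urticae* and wounding GRMZM2G174310 ranged from -0.10 (without wounded leaf 2) to 0.60 and was -0.04 without *T. urticae* leaf 4. The cause was not tested.

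With the replicate number as a block, 12, 20, 0, 23 and 14 members were called in the 5 comparisons, and GRMZM2G429955 (-0.17) and cab48 (-0.18) changed direction after 2 h of *T. urticae*. The 2 further calls of wounding at 2 h against 24 h were cab48 (-2.31) and GRMZM2G429955 (-2.60), both lower at 2 h. The residuals of leaves with the same number correlated with a median of 0.129 over 84 pairs, against -0.04 over 252 pairs of different numbers, but not every pair exceeded 0.1, 2 to 7 of 8 leaves in a comparison correlated best with their own number, and the leaves were not treated as paired. DESeq2 called 12, 21, 0, 22 and 15 members and RLE factors 12, 20, 0, 21 and 15.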
